A study of Mus musculus with 5 samples.

Results

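The genes described here encode the machinery of DNA replication and the switch into S phase, and 37 were listed by name with earlier results of these arrays known. Of these, 35 had a probe set named for them on the array, out of 8251 singly named genes, and where a gene had several, the probe set with the highest mean signal on the 5 arrays stood for it. Pole, the catalytic subunit of DNA polymerase epsilon, and Tyms, thymidylate synthase, had no probe set under their name. The filter on low signal was passed by 33, and the probe sets of Mcm6 and Ccne2 lay below it.

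The RNA came from CD8 T cells of C57BL/6 mice aged 6 to 8 weeks with the OT-1 transgenic T cell receptor, which recognises a peptide of ovalbumin. CD44-low cells from lymph nodes were cultured with microspheres that carried the peptide on its MHC molecule and B7-1, which binds CD28 on T cells and costimulates them, and human IL-2 was in all cultures. The groups were cells stimulated with murine IL-21 for 72 h (1 array), cells stimulated with IL-21 for 48 h (2 arrays) and cells stimulated without IL-21 for 48 h (2 arrays). Each array is labelled a biological replicate, but nothing states that mice or cultures differed between replicates. The p-values therefore reflect only how much these samples varied. No 72 h culture lacking IL-21 is analysed here, and the later time point says nothing on IL-21 itself.

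DNA replication starts when the origin recognition complex, with Cdc6 and Cdt1, loads the MCM2-7 helicase onto origins in G1. Cyclin E with Cdk2 and the kinase Cdc7 then activate the helicase, together with Cdc45 and the GINS complex, and polymerases copy the strands with the sliding clamp PCNA and its loader RFC. Naive T cells are quiescent, and antigen with costimulation drives them into rapid division, during which many of these genes are transcribed under E2F factors. In bulk RNA, fewer cells in S phase and less RNA of these genes per cell cannot be told apart.

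Because E2F factors are known regulators of many replication genes, the 250 bases upstream of the annotated starts were searched on both strands, with overlaps allowed, for 4 words of the E2F type. The words searched were TTCCCGC, further TTGGCGC, as well as TTCGCGC, and also TTGCCGC. Sequences are from RefSeq tables of build GRCm38.p6, in which 30 of the 35 genes had a promoter entry. At least 1 word stood upstream of 15 of these 30 genes, against 9.01% of 27025 genes. Members' windows had a median GC content of 56.8%, against 52.4% over all windows. Of windows with a GC content from 55% up to 75%, 10 of 20 member windows held a word, against 14.6% of 12193 windows. The windows shown are from genes that were called lower at 72 h (results below): Mcm5 with 3 words, Cdc25a with 2 and Mcm2 with none. Capitals mark the words, which run together where they overlap, and the last base stands just before the start of transcription.

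Mcm5, chr8:75109259-75109508, plus strand: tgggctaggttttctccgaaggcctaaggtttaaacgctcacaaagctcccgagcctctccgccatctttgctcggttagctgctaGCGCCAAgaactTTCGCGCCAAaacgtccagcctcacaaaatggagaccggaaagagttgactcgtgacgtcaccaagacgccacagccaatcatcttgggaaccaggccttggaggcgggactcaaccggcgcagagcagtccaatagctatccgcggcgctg

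Cdc25a, chr9:109875329-109875578, plus strand: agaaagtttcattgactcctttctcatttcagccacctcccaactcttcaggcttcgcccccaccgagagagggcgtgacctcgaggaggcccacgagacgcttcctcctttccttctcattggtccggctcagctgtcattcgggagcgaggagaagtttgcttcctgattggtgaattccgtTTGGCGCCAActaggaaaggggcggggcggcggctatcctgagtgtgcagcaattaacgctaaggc

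Mcm2, chr6:88898781-88899030, minus strand: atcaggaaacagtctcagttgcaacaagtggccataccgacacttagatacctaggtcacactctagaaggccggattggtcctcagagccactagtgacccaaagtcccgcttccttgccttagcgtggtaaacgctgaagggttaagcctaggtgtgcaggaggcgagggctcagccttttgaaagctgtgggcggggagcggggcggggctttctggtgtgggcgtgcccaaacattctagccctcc

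The words of Mcm5 began 164, 152 and 149 bases before the start, and those of Cdc25a 66 and 63 bases before it. A word was found in 2 of the 5 members called lower at 72 h and in 12 of the 24 members with a promoter entry that were not called. A match is a stretch of letters and not a measured binding site.

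Arrays differed in overall brightness before scaling, so all values below are quantile-normalised signals, and every direction is relative to the bulk of probe sets. Trimmed mean signals were 65.9 on the 72 h array, 105 and 106 on the 48 h arrays with IL-21, and 75.4 and 65.3 on those without it. All 9 T cell markers on the array passed the filter, Cd8a and Cd8b1 among them, with summed signals of 8526 at 72 h, 5902 and 6452 at 48 h with IL-21, and 5767 and 5872 without it. Between the times with IL-21, 5 of the 9 were higher and 4 lower. Cd3d, Cd3g and Thy1 were called higher in limma, beside 4.04% of all probe sets. Cd8a was lower and not called, with 506 at 72 h, against 690 and 753 at 48 h with IL-21. Of markers of other cells, 5 of 9 B cell, 8 of 16 myeloid and dendritic, 4 of 5 CD4 and regulatory T cell, 5 of 8 erythroid and stromal and 0 of 1 NK cell genes passed. The B cell sum was 1008 at 72 h, 516 to 684 at 48 h with IL-21 and 403 to 683 without it. Ighm, which supplied most of it, and Cd79b stood higher at 72 h than on all 4 arrays at 48 h, as did 30.4% of all probe sets, and so did Fcer2a below the filter. Cd22 and Cr2 stayed at group levels under 5, and 0 B cell genes were called. The sum of the myeloid markers was 422 at 72 h, 285 to 392 at 48 h with IL-21 and 364 to 466 without it. Among the 8 that passed, 3 lay above all arrays at 48 h and 2 below them. H2-Ab1, an MHC class II chain, rose 2.36-fold in limma (adjusted p = 0.0256), and Itgax and Cd68 lay 2.47-fold and 2.30-fold higher without passing. The other way, Csf1r (log2 difference -0.80) and Cd14 (-0.61) lay below all arrays at 48 h. H2-Eb1, another class II chain (-0.78), and Cd74 (-0.37) were lower than the 48 h mean with IL-21 but within the 48 h range. These 4 lower genes were not called. The sum of CD4 and regulatory T cell markers was 174 at 72 h, 194 to 232 at 48 h with IL-21 and 243 to 343 without it. Its lower sum came from Il2ra, with 68.9 at 72 h and a mean of 132 at 48 h with IL-21, while Cd4 had 32.6 at 72 h, against 15.9 and 9.39 with IL-21 and 15.6 and 12.8 without it at 48 h, and was not called. The erythroid and stromal sums were 359 at 72 h, 244 to 332 at 48 h with IL-21 and 308 to 327 without it. Among the 5 that passed, Pecam1 and Col1a2 lay above all arrays at 48 h and Hba-a1 below them, and 0 were called. Pecam1 had 42.6 at 72 h, against 10.1 and 21.1 with IL-21 and 36.8 and 29.9 without it at 48 h. The part of such cells in the results below was not tested. The limit on precision is the number of arrays, 5 in all.

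Between 48 and 72 h with IL-21, replication genes were lower on the later array. Of 33 members tested, 29 had a negative log2 difference, with a median of -0.56, against 50.7% of all 7453 probe sets and a median of -0.01. With an adjusted p under 0.05 in limma, 5 fell, namely the helicase subunits Mcm2, Mcm3 and Mcm5, the phosphatase gene Cdc25a and the clamp loader subunit Rfc5, and 0 rose. The background was 7.12% of probe sets called lower and 4.04% called higher, 11.2% in all. An unadjusted p under 0.05 was reached by 17 of 33 members and by 27.3% of all probe sets. The 72 h signal lay below all 4 arrays at 48 h for 23 of the 33 members and above all of them for 0, while 33.8% of all probe sets lay below. This comparison sets 1 array against 2, so the spread at 72 h was taken from the 48 h groups. When the first or the second 48 h array with IL-21 was left out, the members' median was -0.52 and -0.57. Without the first or the second IL-21-free array it was -0.56 and -0.57. Most of the 5 calls were lost whichever array at 48 h was left out. Scaling on the control transcripts or a fit without the variance trend gave 0 called members. All calls split into 301 higher and 531 lower probe sets, against 100 and 2025 unscaled, 121 and 552 median-centred and 668 and 238 on the control transcripts, with 0 members higher in each.

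**Figure D1:**
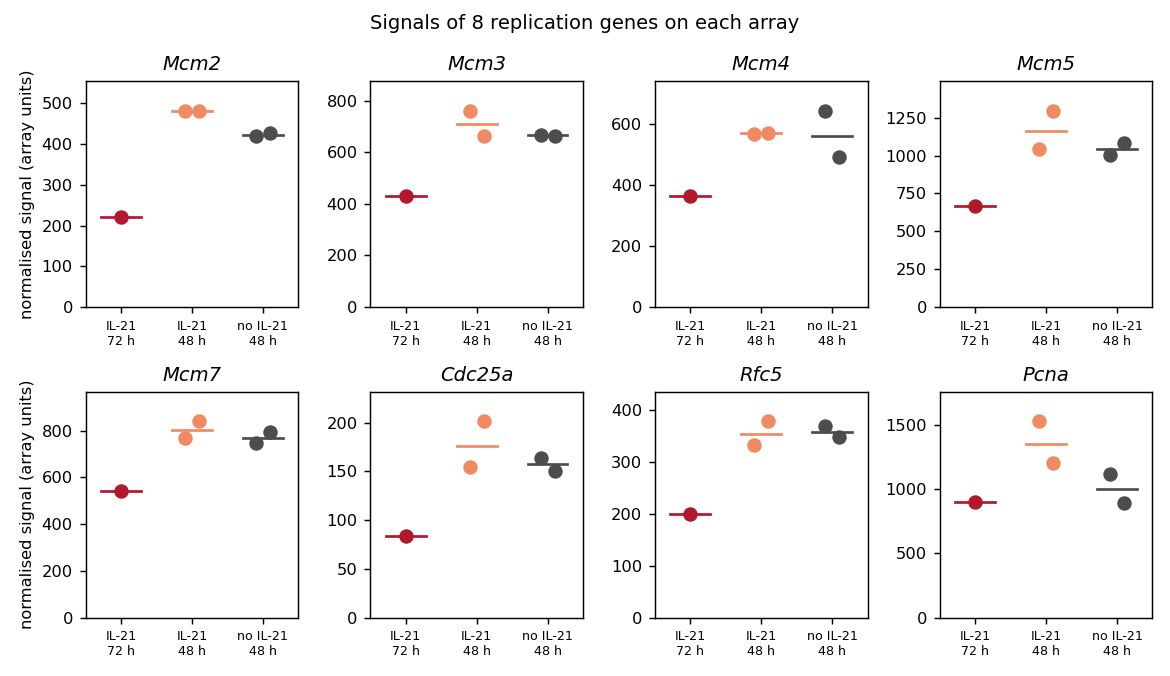
Quantile-normalised signal in array units (y axis, linear and from 0) of Mcm2, Mcm3, Mcm4, Mcm5, Mcm7, Cdc25a, Rfc5 and Pcna on each of the 5 arrays, by group (x axis). Points are arrays and lines are the group's geometric mean; the 72 h point lies below all 48 h points except for Pcna, whose 72 h signal of 903 is just above 1 array without IL-21 at 894.

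The MCM proteins form the ring-shaped helicase that unwinds DNA at the replication fork. Mcm2 had 222 signal units at 72 h, against 482 on each array of the 48 h IL-21 group, and 419 and 427 without it. It fell 2.17-fold between the times (log2 difference -1.12, SE 0.16, adjusted p = 0.0149 in limma). The 2 groups at 48 h did not overlap either, but they lay far closer to each other than to the 72 h array.

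Mcm3 had a signal of 431 at 72 h, against 762.5 and 663 at 48 h with IL-21, and 669 and 665 without it. It fell 1.65-fold (-0.72, SE 0.16, adjusted p = 0.0390 in limma), and its other probe set was also lower (-0.47) without passing. For Mcm5 the signals were 664 at 72 h, 1044 and 1297 at 48 h with IL-21, and 1005 and 1080.5 without it, a 1.75-fold fall (-0.81, SE 0.17, adjusted p = 0.0363 in limma). All 4 arrays at 48 h thus stood well above the later array for both genes.

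Mcm4 and Mcm7 were not called. Mcm4 had 363 at 72 h, against 569 and 572 at 48 h with IL-21, and 645 and 491 without it (-0.65, SE 0.20, adjusted p = 0.0975 in limma). Mcm7 had 543 at 72 h, against 768 and 840.2 at 48 h with IL-21, and 746 and 793 without it (-0.56, SE 0.14, adjusted p = 0.0607 in limma). In both, the 72 h array was again the lowest of the 5. The sixth subunit, Mcm6, had signals of 10.7 at 72 h, 4.20 and 2.77 at 48 h with IL-21, and 6.97 and 7.50 without it. These lie below the filter, which stood at 13.0 units, so the probe set was not tested and gives no measure of Mcm6 beside its partners.

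Genes of origin licensing and firing all had negative differences, and 0 of 6 were called. Orc1, the ATPase subunit of the origin recognition complex, had 28.7 units at 72 h, 55.6 and 62.3 at 48 h with IL-21, and 65.6 and 61.8 without it (-1.03, SE 0.25, adjusted p = 0.0542 in limma). Its partner Orc2 differed by -0.84 with a wide SE of 0.48. Cdc6, which loads MCM rings with ORC, differed by -0.56 (SE 0.18), and Gmnn, the geminin that blocks repeat licensing through Cdt1, by -0.69 (SE 0.20). Cdc7, the kinase that phosphorylates MCM proteins, differed by -0.64 (SE 0.29). Cdc45, the helicase cofactor, differed by -0.13, and its 2 arrays at 48 h with IL-21 stood at 283 and 176, on either side of the 205 at 72 h.

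Among genes of S phase entry, Cdc25a, the phosphatase that activates Cdk2, fell 2.11-fold. Its signals were 83.6 at 72 h, 155 and 202 at 48 h with IL-21, and 164 and 151 without it (-1.08, SE 0.24, adjusted p = 0.0415 in limma). A second probe set of Cdc25a lay below the filter at 3.25 to 6.81 units and differed by 0.04. Cdk2 (-0.51, SE 0.32), the transcription factor gene E2f1 (-0.61, SE 0.38) and Ccne1, which encodes cyclin E1 (-0.14, SE 0.20), were not called. E2f1 had 25.7 at 72 h, against 42.6 and 36.1 at 48 h with IL-21, and 40.9 and 25.9 without it, and the 72 h array was the lowest. Ccne2, for cyclin E2, was below the filter, with 6.18 at 72 h, 11.3 and 10.6 at 48 h with IL-21, and 11.5 and 12.9 without it.

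Of 4 polymerase and primase genes measured, 0 were called at 72 h. Pola1, the catalytic subunit of polymerase alpha, differed by -0.80 (SE 0.20, adjusted p = 0.0566 in limma) and its partner Pola2 by -0.62 (SE 0.18). A second, dimmer probe set of Pola2 differed by -1.59 (SE 0.45). The primase subunits, which lay down RNA primers, had smaller differences. Prim1 differed by -0.34 (SE 0.28) and Prim2 by 0.02 (SE 0.22). Of the nucleotide enzymes 0 of 3 were called. Rrm1 and Rrm2, the large and small subunits of ribonucleotide reductase, differed by -0.52 (SE 0.14) and -0.48 (SE 0.17), and Tk1, thymidine kinase, by -0.19 (SE 0.15). A second probe set of Rrm1 lay below the filter at 2.72 to 3.08 units and differed by 0.06.

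Set side by side, the 5 MCM genes had a median log2 difference of -0.72, between -1.12 and -0.56, and the 7 polymerase and nucleotide genes one of -0.48, between -0.80 and 0.02. The MCM median was thus lower by 0.24 on the log2 scale than that of the enzymes. Against each of the 4 arrays at 48 h the gap was between -0.32 and -0.10, and between replicate arrays it was 0.01 and 0.06. Without the second 48 h array with IL-21 it was -0.12. The ranges overlapped, since Pola1 lay within that of the MCM genes, and Mcm6, Pole and Tyms are missing from the comparison. The difference between the sets was not tested.

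**Figure D2:**
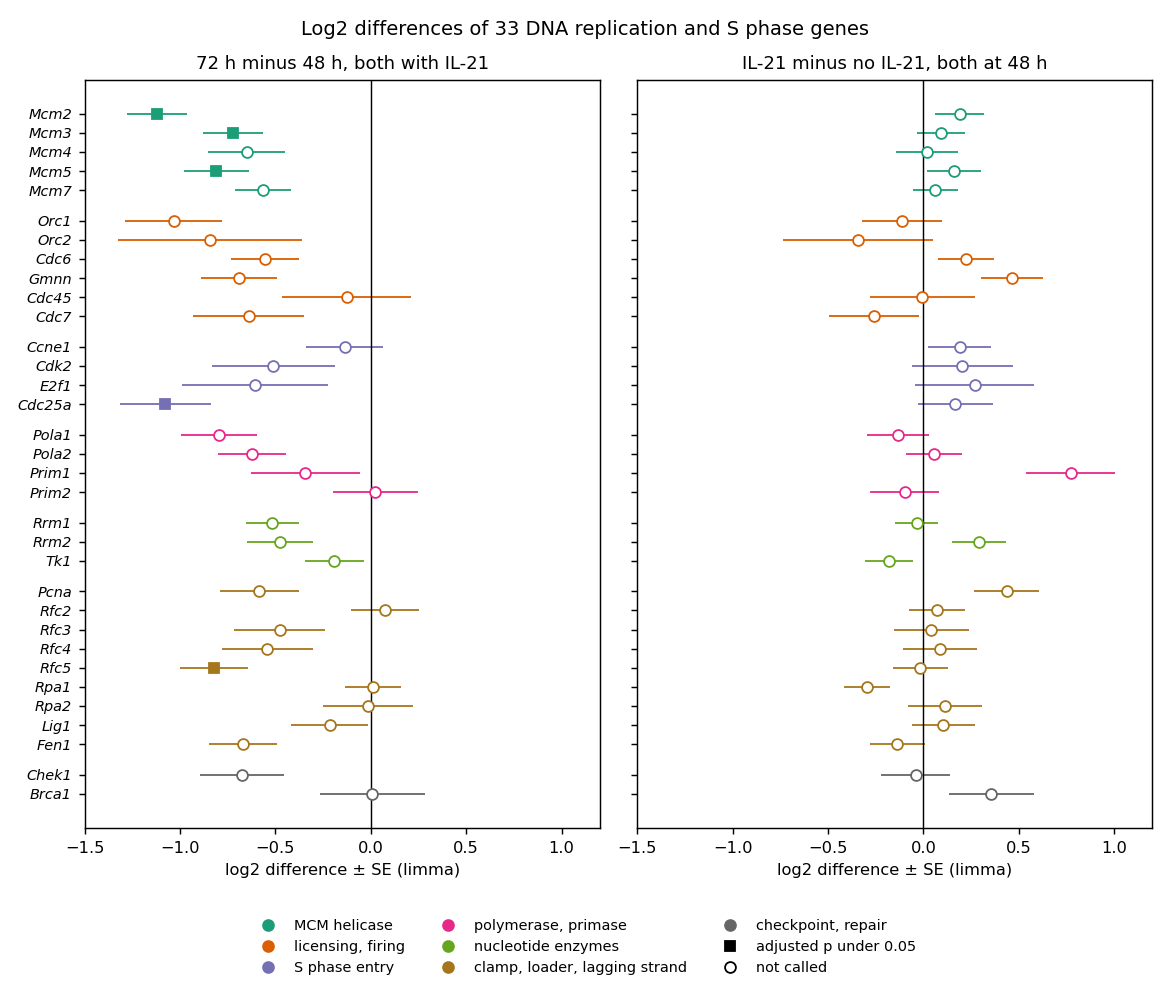
Log2 differences with limma SE (x axes) for the 33 members that passed the filter (y axis), coloured by role, at 72 h minus 48 h with IL-21 (left) and with IL-21 minus without at 48 h (right). Filled squares passed the limma test, and they are Mcm2, Mcm3, Mcm5, Cdc25a and Rfc5 on the left and none on the right.

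At the fork itself the loader subunit Rfc5 fell 1.77-fold, with signals of 201 at 72 h, 332 and 379 at 48 h with IL-21, and 369 and 349 without it (-0.82, SE 0.18, adjusted p = 0.0388 in limma). A second, dimmer probe set of Rfc5 had a positive difference (0.73, SE 0.60), and with the probe sets of each gene averaged Rfc5 differed by -0.05 (adjusted p = 0.937 in limma). The other loader subunits were uneven, with Rfc3 at -0.48, Rfc4 at -0.54 and Rfc2 at 0.07. Pcna, the sliding clamp, had 903 at 72 h, 1529 and 1200.1 at 48 h with IL-21, and 1122 and 894 without it (-0.58, SE 0.21), so its 72 h signal lay within the range of the IL-21-free arrays.

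Fen1, the nuclease that trims Okazaki fragments, differed by -0.67 (SE 0.18, adjusted p = 0.0658 in limma) and Lig1, the ligase that seals them, by -0.22 (SE 0.20). A second probe set of Lig1 lay below the filter and differed by 1.25, with 14.6 units at 72 h and 3.39 to 12.6 at 48 h. Rpa1 and Rpa2, subunits of the protein that coats single-stranded DNA, differed by 0.01 (SE 0.15) and -0.02 (SE 0.24). The checkpoint kinase gene Chek1 differed by -0.68 (SE 0.22) and Brca1, of homologous recombination, by 0.01 (SE 0.27). Members therefore ranged from Mcm2 at -1.12 to Rfc2 at 0.07, with Prim2, Rfc2, Rpa1, Rpa2 and Brca1 nearest to no difference.

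Further replication genes, 65 in a list that shares no member with the one above, were also mostly lower at 72 h. The array held 49 of them, the filter left 45, and 36 of the 45 had a negative difference at 72 h, with a median of -0.42. At 72 h 29 of the 45 lay below all 4 arrays at 48 h and 6 above them, against 33.8% and 30.4% of all probe sets. The highest difference was 0.72, for Rb1 (SE 0.31, not called). In limma 12 fell and 0 rose, beside the 7.12% and 4.04% of all probe sets. Those with the smallest p were Shmt1, which makes the folate cofactor of thymidylate synthesis (-2.06, SE 0.19), the topoisomerase gene Top1 (-1.64, SE 0.15), the histone acetyltransferase gene Hat1 (-1.48, SE 0.22), the uracil DNA glycosylase gene Ung (-1.11, SE 0.20), the E2F partner Tfdp1 (-0.86, SE 0.16) and Mcm10, a helicase cofactor (-1.49, SE 0.29). Their adjusted p lay between 0.00928 and 0.0295 in limma.

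Genes of mitosis and G2 had a median difference of -0.04 at 72 h, with 22 of 41 below 0, against 50.7% of all probe sets. In limma 0 of these fell and 1 rose, beside 7.12% and 4.04% of all probe sets. The 1 that rose was Nusap1, which organises the mitotic spindle. It had a signal of 535 at 72 h, against 257 and 235 at 48 h with IL-21, and 279 and 230.2 without it (1.12, SE 0.20, adjusted p = 0.0241 in limma). Top2a, which stands in both lists, was higher at 72 h than on all 4 arrays at 48 h (0.51, SE 0.16) but was not called. The replication members and the mitotic genes came from the same 5 arrays, and the difference between their medians was not tested.

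**Figure D3:**
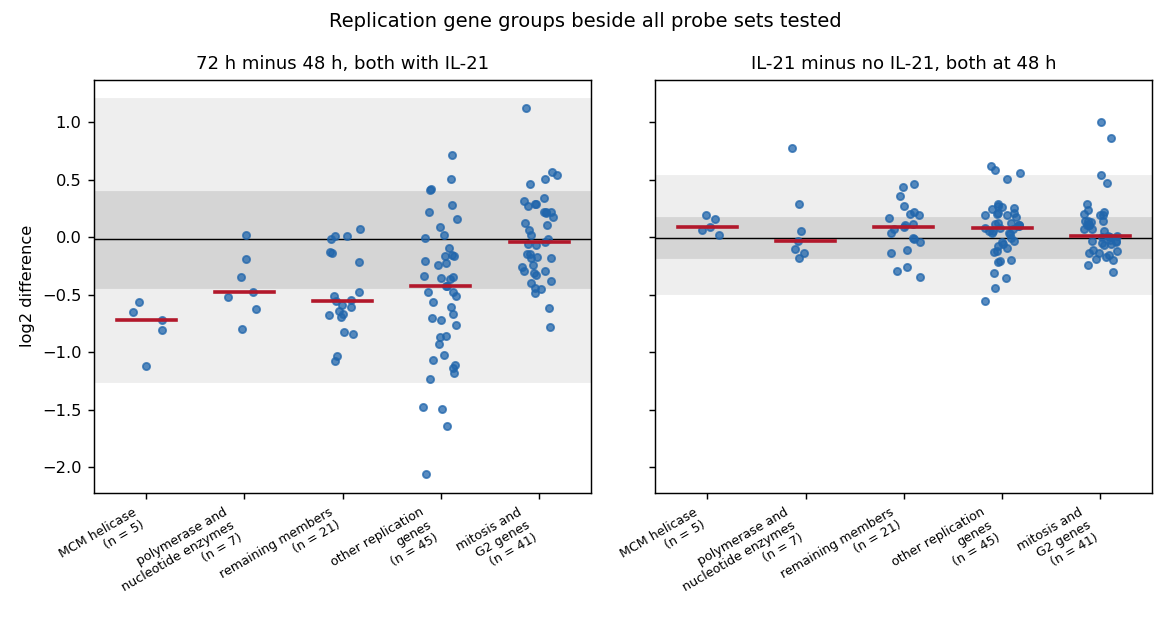
Log2 differences (y axis, shared) of single genes (points) by gene group (x axis, with the number of genes), at 72 h minus 48 h with IL-21 (left) and with IL-21 minus without at 48 h (right). Red lines are group medians, the black line the median of all 7453 probe sets, the dark band their 25th to 75th and the light band their 5th to 95th percentile; at 72 h the MCM median of -0.72 lies below the dark band, whose lower edge is -0.44, and the mitotic median of -0.04 lies near the middle.

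With IL-21 at 48 h the same members were close to their level without it. Of 33 tested, 21 had a positive log2 difference and 12 a negative one, with a median of 0.07, against 48.8% positive and a median of -0.01 over all probe sets. In limma 0 members passed an adjusted p under 0.05, as did 0 of all 7453 probe sets, and the members' adjusted p lay between 0.967 and 0.998. An unadjusted p under 0.05 was reached by 4 members, against 4.39% of all probe sets. The groups did not overlap for 8 members on the higher side and 4 on the lower, or 36.4%, against 15.9%, 17.9% and 33.8% in all for the 7453 probe sets. Without the second array with IL-21 the median was 0.013, and without the second array lacking it 0.023. Under scaling on the labelled control transcripts the members' median was -0.34, beside -0.43 for all probe sets, so its direction holds only relative to the bulk.

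On the higher side the smallest p belonged to Prim1, the catalytic primase subunit, with 70.6 and 79.0 units with IL-21, against 50.4 and 38.0 without it (0.77, SE 0.23). Gmnn had 192 on both arrays with IL-21, against 148 and 131 without it (0.46, SE 0.16). For Pcna the signals were 1529 and 1200.1 with IL-21, against 1122 and 894 without it (0.44, SE 0.17). Groups did not overlap for these genes, and Pcna was higher by 0.45 and 0.42 between arrays of the same number. Rrm2 had 483 and 414 with IL-21, against 366 and 367 without it (0.29, SE 0.14).

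On the lower side stood Rpa1, with 494 and 523 units with IL-21, against 626 and 622 without it (-0.30, SE 0.12). Tk1 had 493 on both arrays with IL-21, against 583 and 534 without it (-0.18, SE 0.12). The signals of Fen1 were 227 and 231 with IL-21, against 255 and 248 without it (-0.14, SE 0.14). Cdc7 overlapped, with 62.5 and 47.6 with IL-21, against 70.1 and 60.8 without it (-0.26, SE 0.24). The lower members thus came from several roles and had small differences.

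All 5 MCM genes tested had a positive difference at 48 h, between 0.02 for Mcm4 and 0.19 for Mcm2 (SE 0.12 to 0.16), and only for Mcm2 did the groups not overlap. Their median was 0.09 and that of the 7 polymerase and nucleotide genes -0.03. The gap of 0.13 lay between 0.10 and 0.20 for the 4 pairs of single arrays, and it was not tested. Without the second IL-21 array it was 0.04. Under scaling on the control transcripts, which moves all members alike, the MCM genes keep this gap (0.15) but not their sign. The 4 genes of S phase entry differed by 0.17 to 0.27, with overlapping groups for each, and E2f1 differed by -0.39 in its other probe set. The remaining tested members had differences between -0.34 for Orc2 (SE 0.40) and 0.36 for Brca1 (SE 0.22). Rfc5 differed by -0.02 (SE 0.15), but by -1.16 (SE 0.49) in its dimmer second probe set and by -0.59 with probe sets averaged.

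Further replication genes had a median of 0.08 at 48 h, with 30 of 45 positive, and 0 passed in limma. The smallest p on the higher side belonged to Tfdp1 (0.56, SE 0.13), Ung (0.51, SE 0.16) and Pole3, a polymerase epsilon subunit (0.58, SE 0.19), and on the lower side to Ccna2, which encodes cyclin A2 (-0.36, SE 0.13), Orc4 (-0.44, SE 0.21) and Top2a (-0.20, SE 0.13). Mitosis and G2 genes had a median of 0.01, with 23 of 41 positive, against 48.8% of all probe sets, and 0 called. Aurka (0.86), Ube2c (1.00) and Kif23 (0.54) had the smallest p among the higher genes, and Mki67 (-0.24), Bub1 (-0.30) and Cks2 (-0.18) among the lower.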

How the data were processed

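Affymetrix probe set intensities on a linear scale, 1 array per sample, were used as deposited. Per the submitters' processing notes MAS5 made them; its scaling target is not given in the sources used here. Groups came from the sample titles. Symbols came from platform annotation, updated through Entrez identifiers to GRCm38.p6 (10817 of 10833 singly named probe sets matched; 396 had several names and 1193 none).

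An offset of 1.53, the 10th percentile of the deposited intensities, was added before log2, which understates differences of dim probe sets, and arrays were quantile-normalised. Probe sets with a mean above the 40th percentile were kept (7453 of 12422). Group means were fitted to all 5 arrays with limma 3.58.1 in R 4.3.3 (2 residual degrees of freedom, variance trend, two-sided), with Benjamini-Hochberg adjustment over 7453 probe sets. Lists are described by counts and medians, with no test. The fit was tested on simulated data.

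The members and lists were chosen with earlier results of these data known. All 37 members are named. Per-array values are given for MCM genes, for called members and for the 4 per direction with the smallest p at 48 h, plus a few others chosen after their values were seen. From the other lists the text names the 6 called genes per direction with the smallest p at 72 h and 3 at 48 h. Alternatives were the scaling, offset, filter, variance trend, probe set averaging, replicate block and leaving out each array.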

Additional observations from a re-analysis of the deposited data

How the results depend on the processing

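At 72 h the members' median stayed negative under all 14 alternatives run, with values from -0.64 to -0.48, while the count of calls depended on the processing. For the unscaled, median-centred and control-scaled values the median of all probe sets was taken off first. In the other alternatives it lay between -0.053 and -0.0042 and was left in. The median was -0.64 in the unscaled, median-centred and control-scaled values, -0.48 with an offset of 16 and -0.50 with probe sets averaged. The unscaled, median-centred and control-scaled values differ only by a constant per array. Their relative medians are therefore the same by construction and amount to 1 check. As fitted, their medians were -1.22, -0.81 and -0.31. Instead of 5 members, 24 passed in the unscaled values, 0 after scaling on the control transcripts or without the variance trend, and 1 without the filter or with probe sets averaged. With 1 array left out at a time, 0 to 1 passed, with a median between -0.57 and -0.52. The cause was not tested. Unscaled values shift all probe sets by -0.58 and control scaling by 0.33. Without the filter 591 of 12422 probe sets passed (4.76%), with probe sets averaged 595 of 6059 (9.82%), and control-scaled 906 of 7453 (12.2%). Over all probe sets 832 passed, against 2125 unscaled, 0 without the trend and 0 to 436 with an array left out. The gap between MCM and enzyme medians lay between -0.25 and -0.12 at 72 h and between 0.039 and 0.15 at 48 h when each array was left out, and was 0.053 at 48 h with probe sets averaged. At 48 h 9 members passed in the unscaled values, all higher, where all probe sets shift by 0.57. So did 680 of all 7453 probe sets (9.12%), again all higher. The median at 48 h lay between 0.013 and 0.11 with each array left out.

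With the replicate number as a block, 15 members and 1860 probe sets passed at 72 h, and 0 members and 11 probe sets at 48 h. No label ties the numbers to a mouse or day, and with 2 pairs the deviations of the arrays numbered 1 correlated at 0.36, which does not settle whether the numbers pair the samples.

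For the unscaled, median-centred and control-scaled values, signs were counted after the shift shared by all probe sets was taken off. Counted so, no sign change at 72 h concerned a member called there. Of these called members, Mcm3, Cdc25a and Rfc5 changed sign at 48 h, where 0 members passed in the quantile-normalised values. With the shift taken off, Prim2 (-0.013), Rfc2 (-0.079) and Rpa1 (-0.10) changed sign at 72 h, and Rfc5 (0.017) and Rrm1 (0.012) at 48 h. These relative values are the same under all of these scalings, which differ only by a constant per array. They are not the values as fitted. As fitted, 0 of 33 members lay below 0 at 48 h unscaled, 8 median-centred and 30 control-scaled, against 12 in the quantile-normalised values. The MCM genes thus lost their positive sign under control scaling. With probe sets averaged, Lig1 was 0.52 at 72 h, and at 48 h Cdc25a was -0.18, E2f1 -0.058, Lig1 -0.21, Rrm1 0.034 and Tk1 0.21. The block gave -0.047 for Brca1 at 72 h. Leaving out each array, values at 48 h lay between -0.0082 and 0.19 for Mcm3, -0.19 and 0.21 for Mcm4, -0.0029 and 0.13 for Mcm7, -0.70 and 0.021 for Orc2, -0.35 and 0.33 for Cdc45, -0.10 and 0.50 for Cdk2, -0.056 and 0.60 for E2f1, -0.022 and 0.36 for Cdc25a, -0.017 and 0.13 for Pola2, -0.078 and 0.0051 for Rrm1, -0.015 and 0.16 for Rfc2, -0.089 and 0.26 for Rfc4, -0.11 and 0.081 for Rfc5, -0.014 and 0.23 for Lig1 and -0.10 and 0.023 for Chek1. At 72 h they lay between -0.46 and 0.21 for Cdc45, -0.060 and 0.11 for Prim2, -0.012 and 0.16 for Rfc2, -0.031 and 0.055 for Rpa1, -0.064 and 0.029 for Rpa2 and -0.045 and 0.062 for Brca1.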
